A study of Homo sapiens with 4 samples.

Results

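The granins are acidic proteins stored with peptide hormones in the dense-core vesicles of neuroendocrine cells, and together with a few other proteins they are what pathologists stain to recognise such cells. The set described here holds 10 genes: the granins CHGA, CHGB, SCG2, SCG3 and SCG5, the vesicle membrane protein gene SYP, the adhesion molecule gene NCAM1, the ubiquitin hydrolase gene UCHL1, the prohormone convertase gene PCSK1 and the bombesin-like peptide gene GRP. Genes were taken by symbol from a table of 16376 genes. A row was found for 9 of the 10, and GRP is not analysed here. Only 2 of them, NCAM1 and UCHL1, reached the mean of 1 FPKM (fragments adjusted for the length of the gene and the size of the library) that was asked of a gene before testing.

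RNA came from LASCPC-01, a cell line derived from benign human prostate epithelium transformed with N-Myc and activated AKT1, and labelled as a neuroendocrine prostate cancer model of wild-type genotype. PBS was given to 2 samples and ketotifen, an H1 antihistamine that also stabilises mast cells, to 2, and all 4 carry the label day 3. The labels give no dose, and a single line stands for the disease. Separate cultures are not named in the labels, so the p-values describe variation among these libraries only, and that variation may be technical. Libraries are named A and B within each group, with no pairing across groups. Errors are SD with n = 2 libraries per group unless stated.

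In a neuroendocrine cell, granins help to form dense-core vesicles and are themselves cut into peptides. PCSK1 and PCSK2 cut prohormones at pairs of basic residues in these vesicles, carboxypeptidase E trims the products and PAM amidates them, while SCG5 (7B2) is the chaperone that PCSK2 needs to become active. Many of these genes are silenced outside neural and endocrine tissue by the repressor REST, which binds a long element called RE1, and several respond to cyclic AMP through the element CRE. In prostate cancer, chromogranin A, synaptophysin and CD56 (the product of NCAM1) are the usual stains for neuroendocrine differentiation.

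RefSeq promoters (GRCh38.p14, 250 bases before to 50 after the annotated start) were at hand for 7 of the 10 genes: CHGA, SCG3, SCG5, SYP, UCHL1, PCSK1 and GRP. Stretches of 4 of them are shown, because 3 hold letters of known control elements in genes that were nearly silent, and the fourth is from the most abundant gene. Capitals mark the CRE letters TGACGTCA in CHGA and PCSK1, the letters TTTATA in UCHL1 (TATAAA read on the other strand), and the letters TTCAGCACC and GGACAG, the left and right portions of RE1, in SCG3. They are printed 5′ to 3′ on the strand of the gene.
CHGA, chr14:92923085-92923114, plus strand: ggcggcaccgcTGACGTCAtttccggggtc
PCSK1, chr5:96433307-96433336, minus strand: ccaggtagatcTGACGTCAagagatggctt
SCG3, chr15:51681508-51681537, plus strand: aacTTCAGCACCcacagggcGGACAGcgct
UCHL1, chr4:41256887-41256916, plus strand: tctggccggcgcTTTATAgctgcagcctgg

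Positions are counted from the RefSeq starts. The CRE starts at position -54 from the start of CHGA and at -77 from the first of the 2 starts listed for PCSK1. The GENCODE intervals given below for the printed genes begin upstream of these RefSeq starts, so the printed stretches lie inside those intervals. These letters occur, on either strand, in 1.85% of 35116 RefSeq promoters of the same length. In SCG3 the left RE1 portion begins at base 9 after the start and the right portion at base 26, with 8 bases between them, whereas the consensus has 2 between them. TTCAGCACC occurs in 0.376% of promoters, GGACAG in 20.5%, and both portions at the consensus distance in 0.0142%. The TATAAA letters occur in 11.5% of promoters. They begin at -29 in UCHL1, and were also found in GRP and at the second start of PCSK1. None of the motifs searched was found in the windows of SCG5 or SYP. Such matches describe the letters and show no binding. REST itself had 6.41 and 7.31 FPKM in PBS libraries A and B and 6.65 and 6.73 FPKM in ketotifen libraries A and B, a change of -0.03 ± 0.08 (SE) on the log2(FPKM + 1) scale.

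**Figure D1:**
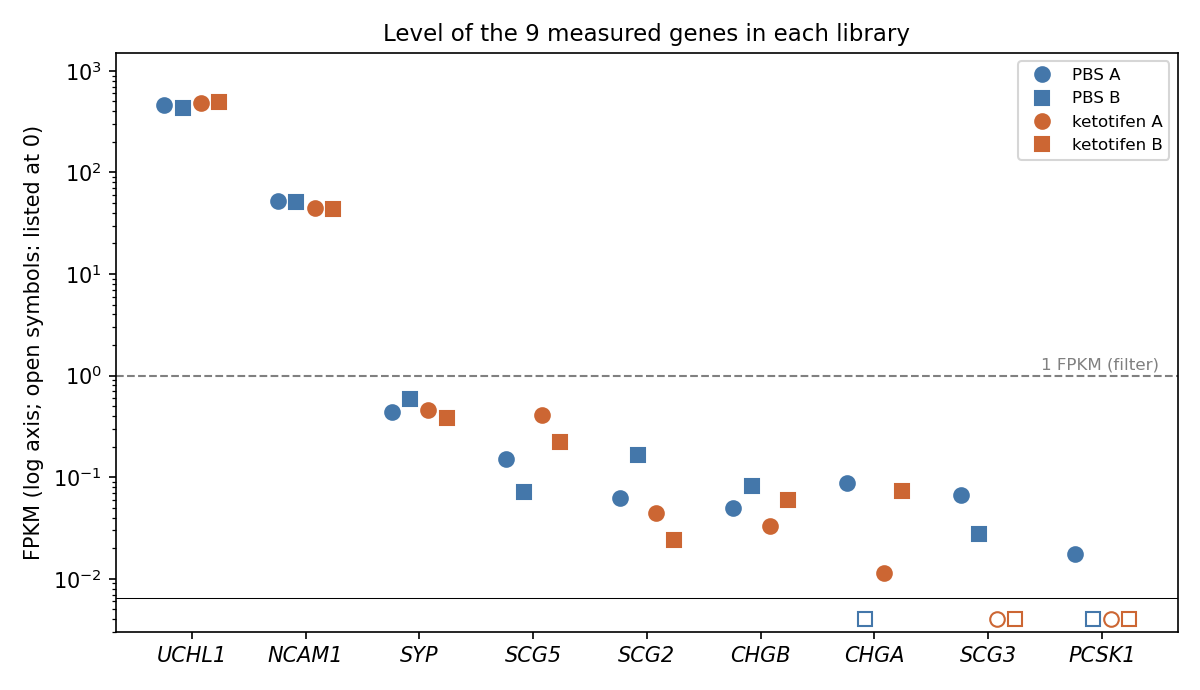
FPKM of the 9 measured genes (log axis) in each of the 4 libraries, blue for PBS and orange for ketotifen, circles for library A and squares for library B, with values of 0 as open symbols under the line. UCHL1 (434 to 490.2 FPKM) and NCAM1 (43.9 to 52.0 FPKM) lie above the dashed filter line at 1 FPKM, and the other 7 genes lie below it in every library.

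The set fell into 2 very unequal parts. UCHL1, a neuronal deubiquitinating enzyme also known as PGP9.5, had a mean of 467 FPKM over the 4 libraries, which is higher than 99.4% of all rows of the table. NCAM1, which encodes the homophilic adhesion molecule CD56, had 47.9 FPKM, higher than 91.4% of rows. Next came SYP, the synaptic vesicle protein synaptophysin, at 0.469 FPKM, higher than 30.9% of rows. The range of UCHL1 over the libraries did not touch that of NCAM1, nor did the range of NCAM1 touch that of SYP. From SYP downwards, through SCG5 (0.214 FPKM), SCG2 (0.0743), CHGB (0.0561), CHGA (0.0435), SCG3 (0.0237) and PCSK1 (0.00438), each gene's range overlapped that of the next, so pooled over the libraries the order of neighbours among these 7 is not resolved. Within libraries, SYP exceeded SCG5 in all 4. In all 16376 rows, 35.4% lay under a mean of 1 FPKM. The 7 low genes summed to 0.877 and 0.941 FPKM in PBS libraries A and B and to 0.960 and 0.760 in ketotifen libraries A and B, and NCAM1 alone exceeded that sum 46.3 to 59.3 times.

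Other markers of the lineage were compared with these levels to check the label. DLL3, a Notch ligand found on neuroendocrine tumours, had 188 ± 15.0 FPKM in the PBS group and 204 ± 2.51 FPKM in the ketotifen group, and INSM1, a neuroendocrine zinc finger factor, 22.3 ± 0.856 and 20.8 ± 1.49 FPKM. In the marker list of 13 genes, all with a row, 6 lay under 1 FPKM. The levels of INSM1, DLL3, NCAM1 and UCHL1 thus match the neuroendocrine label, and those of the chromogranins, secretogranins and synaptophysin go against it. Epithelial keratins were abundant, with KRT8 at 423 ± 16.1 and 459 ± 7.57 FPKM, and KRT18 at 373 ± 20.3 and 400.2 ± 5.82 FPKM. All 5 measured immune markers lay under 1 FPKM, with sums of 0.107 to 0.226 FPKM per library.

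The first comparison asks whether the abundant markers differed after ketotifen. NCAM1 lies on chromosome 11 (112961247 to 113278436, plus strand, GRCh38, GENCODE release 29). It had 52.0 and 51.2 FPKM in PBS libraries A and B, and 44.4 and 43.9 FPKM in ketotifen libraries A and B. Both ketotifen libraries were lower than both PBS libraries, and the libraries of a group lay closer together than the groups. Group means were 51.6 ± 0.620 and 44.2 ± 0.355 FPKM. On the log2(FPKM + 1) scale the change was -0.22 ± 0.05 (SE), with a 95% interval of -0.34 to -0.10, and it did not pass limma's moderated test over all genes (adjusted p = 0.107). Behind these values stood 12395 to 14852 reads per library, recovered from the steps of the FPKM values. On those reads limma's voom, which weights each value by its read depth, called NCAM1 lower (adjusted p = 0.00999). Among tested genes, 5.14% had a more negative change than NCAM1.

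UCHL1 is on chromosome 4 (41256413 to 41268455, plus strand) and went the other way. It had 458 and 434 FPKM in PBS libraries A and B and 487 and 490.2 FPKM in ketotifen libraries A and B. The groups did not overlap, and the PBS libraries differed from each other by more than the ketotifen libraries did. Means were 446 ± 16.4 and 488 ± 2.42 FPKM, a change of 0.13 ± 0.05 (SE) on the log2(FPKM + 1) scale with a 95% interval of 0.01 to 0.26. Neither limma (adjusted p = 0.226) nor voom (adjusted p = 0.0979) called it, on 16590 to 19706 reads per library. A larger positive change was found in 14.2% of tested genes. After quantile normalization its change was 0.02, with an interval of -0.09 to 0.12.

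Since both genes sit in the same libraries, their ratio does not depend on a single factor applied to a whole library. Quantile normalization is not such a factor, and after it the log2 changes were -0.24 for NCAM1 and 0.02 for UCHL1. UCHL1 exceeded NCAM1 8.79 and 8.49 times in PBS libraries A and B, and 10.95 and 11.2 times in ketotifen libraries A and B. The ratio was thus higher in each ketotifen library than in each PBS library (8.64 ± 0.215 against 11.1 ± 0.144). This separation had to follow from the opposite separations of the 2 genes given above, and it is no further support for them. An exact permutation test of 2 against 2 libraries cannot go below p = 0.333 (two-sided), so none was made. Such a ratio shows unequal change and does not say which gene moved.

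**Figure D2:**
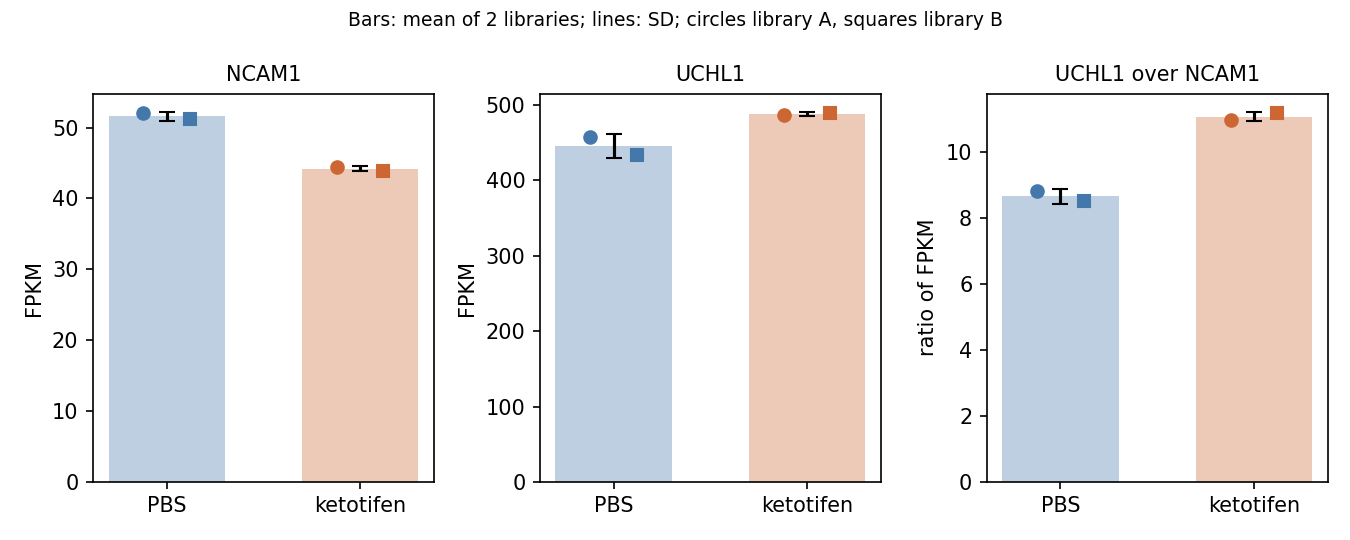
FPKM of NCAM1 and of UCHL1 and the ratio of UCHL1 to NCAM1 in PBS (blue) and ketotifen (orange), with bars for the mean of 2 libraries, lines for the SD, circles for library A and squares for library B. NCAM1 was lower in both ketotifen libraries (44.4 and 43.9 FPKM), UCHL1 was higher (487 and 490.2 FPKM), and the ratio went from 8.49 and 8.79 to 10.95 and 11.2.

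At these settings limma called 13 of 10586 tested genes, or 0.123% (1 higher, 0.00945%, and 12 lower, 0.113%), and voom 721 of 10585, or 6.81% (355 higher, 3.35%, and 366 lower, 3.46%). The share of tested genes whose groups did not overlap was 54.4% (23.2% with ketotifen higher, 31.2% with ketotifen lower), so the separation of NCAM1 and UCHL1 by group is a common event in these libraries. Limma did not call NCAM1 at the main settings, and whether it passed varied with the library left out. Its change was -0.21 and -0.23 without PBS library A and B, and -0.23 and -0.21 without ketotifen library A and B. For UCHL1 the change was 0.17 and 0.094 without PBS library A and B, and 0.14 and 0.13 without ketotifen library A and B. Voom, which did call NCAM1, was not refitted with a library left out. The count of genes called by limma moved in the same refits, to 1936, 421, 28 and 10 without PBS library A, PBS library B, ketotifen library A and ketotifen library B. Fibroblast markers, of which 6 of 7 lay under 1 FPKM, summed to 2.87 and 3.15 FPKM in PBS libraries A and B and 2.58 and 2.18 FPKM in ketotifen libraries A and B. Most of it came from COL1A1, and its part in the NCAM1 difference was not tested. In bulk RNA, fewer cells of a kind and less RNA per cell cannot be told apart.

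**Figure D3:**
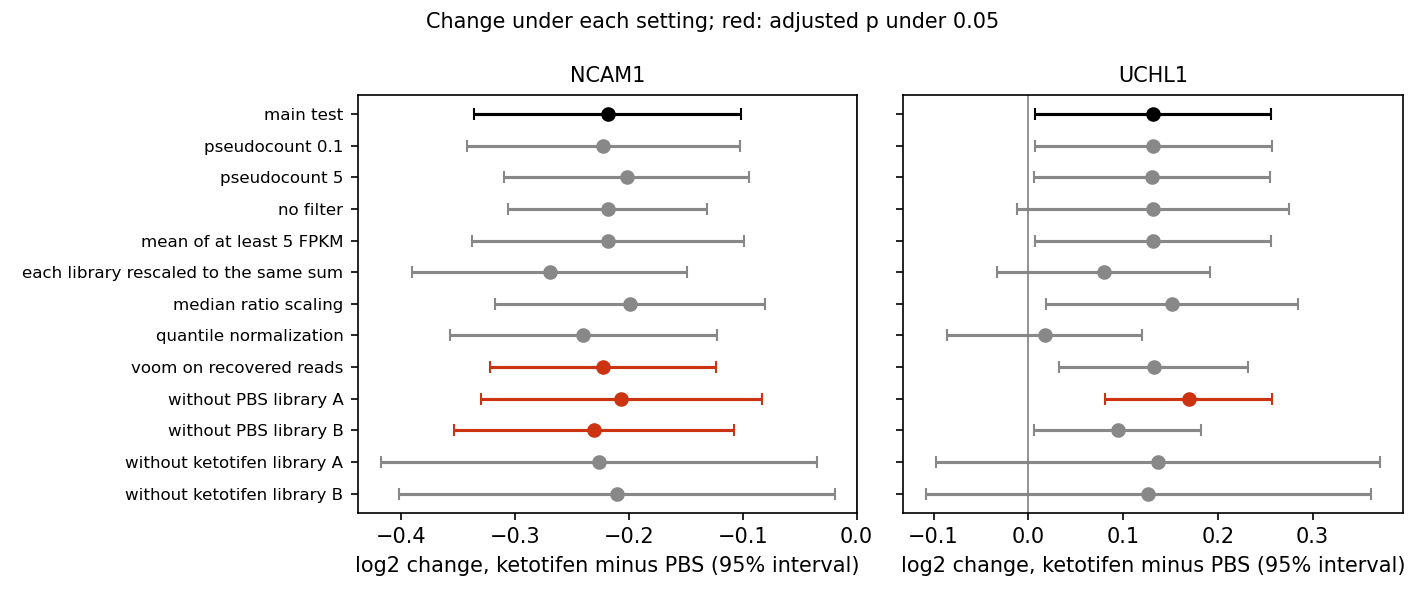
Log2 change (ketotifen minus PBS) with its 95% interval for NCAM1 and UCHL1 under the main test (black) and each alternative, red where the adjusted p was under 0.05. NCAM1 stayed negative (-0.27 to -0.20) and UCHL1 positive (0.02 to 0.17), and NCAM1 passed in 3 of the alternatives and UCHL1 in 1.

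The second comparison concerns the granins, where each value rests on a handful of reads. CHGA encodes chromogranin A (chromosome 14, 92923080 to 92935293, plus strand), the serum and tissue marker of neuroendocrine tumours. It had 0.0886 and 0 FPKM in PBS libraries A and B and 0.0113 and 0.0739 FPKM in ketotifen libraries A and B. These values correspond to 7, 0, 1 and 6 reads. Both groups thus held 7 reads in all, and they overlapped. The 0 in PBS library B allows a level of up to 0.0359 FPKM, the worth of 3 reads, for counting error only.

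CHGB, or chromogranin B (chromosome 20, 5911430 to 5925361, plus strand), had 0.0494 and 0.0818 FPKM in PBS libraries A and B and 0.0332 and 0.0601 FPKM in ketotifen libraries A and B. With 4, 7, 3 and 5 reads the groups overlapped. SCG2, the precursor of secretoneurin (chromosome 2, 223596940 to 223602503, minus strand), had 0.0625 and 0.165 FPKM in PBS libraries A and B and 0.0448 and 0.0243 FPKM in ketotifen libraries A and B. Its 5 and 14 reads against 4 and 2 did not overlap, but the PBS libraries were farther apart from each other than PBS library A was from either ketotifen library.

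SCG3, which anchors chromogranin A at the vesicle membrane (chromosome 15, 51681353 to 51721031, plus strand), had 0.0674 and 0.0273 FPKM in PBS libraries A and B, from 7 and 3 reads. It was listed at 0 in both ketotifen libraries, where 3 reads would be worth 0.0259 and 0.0281 FPKM. The 3 reads of PBS library B are the number that a count of 0 allows. SCG5, on the same chromosome (32641676 to 32697098, plus strand), had 0.152 and 0.0720 FPKM in PBS libraries A and B and 0.409 and 0.222 FPKM in ketotifen libraries A and B. The steps give 2, 1, 6 and 3 for these libraries up to a common factor, and the annotated exon length of 1238 bases makes 3 the nearest factor, or 6, 3, 18 and 9 reads. Both ketotifen libraries were above both PBS libraries, the reverse of SCG2 and SCG3.

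SYP is on chromosome X (49187804 to 49200259, minus strand) and was the best covered of the low genes. It had 0.440 and 0.594 FPKM in PBS libraries A and B and 0.461 and 0.379 FPKM in ketotifen libraries A and B, from 35, 50, 41 and 31 reads. The groups overlapped (0.517 ± 0.109 and 0.420 ± 0.0581 FPKM). PCSK1, on chromosome 5 (96390415 to 96434143, minus strand), was listed at 0.0175 FPKM in PBS library A and at 0 in the other 3 libraries. By its annotated exon length of 5164 bases, that value is worth 3 reads.

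**Figure D4:**
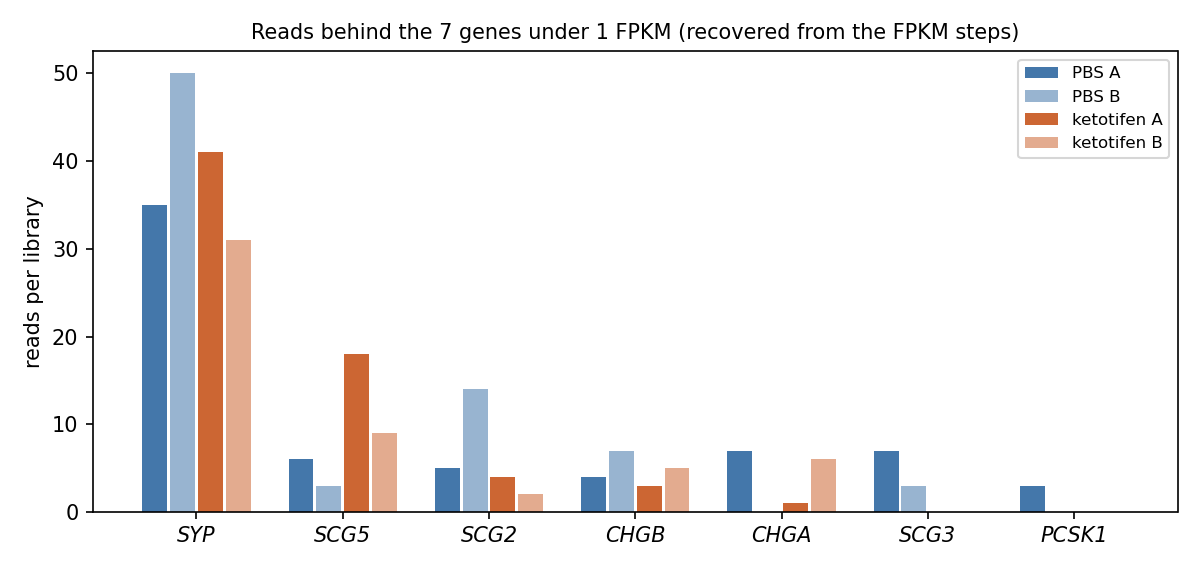
Reads per library behind the 7 genes under 1 FPKM, dark blue and light blue for PBS libraries A and B and dark and light orange for ketotifen libraries A and B. SYP had 31 to 50 reads, and none of the other 6 genes exceeded 18.

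None of these 7 genes entered the main test. With no filter on low values they were fitted with all genes, and limma's adjusted p ran from 0.344 for SCG5 (unadjusted p = 0.0441) to 0.998 for CHGA. In that fit limma called 0 of 16104 genes, with 2295 at an unadjusted p under 0.05, and NCAM1, despite its read numbers, had an adjusted p of 0.311, so the absence of a call says little about any single gene. Of the 9 measured members, 5 had groups that did not overlap, with ketotifen higher in 2 (UCHL1 and SCG5) and lower in 3 (NCAM1, SCG2 and SCG3). Over all rows the share without overlap was 45.5% (18.3% with ketotifen higher and 27.2% with ketotifen lower), and over rows under 1 FPKM but above 0 it was 30.8%.

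The relatives of the members show where the low genes stand within their families. In the granin family list of 8 genes, 7 lay under 1 FPKM. GNAS alone was above it, at 5.69 ± 0.138 FPKM with PBS and 4.74 ± 0.0706 FPKM after ketotifen (adjusted p = 0.159 in limma and 0.0549 in voom), and its row does not separate the granin-like product NESP55 from the G protein subunit. In the synaptophysin family 4 of 7 measured genes lay under 1 FPKM, namely SYP, SYNGR1 (0.404 FPKM), SYPL2 (0.0299 FPKM) and SYNGR4 (0.0174 FPKM), and 3 did not. SYNGR2, a synaptogyrin found in many cell types, had 175 ± 8.87 and 190.1 ± 2.02 FPKM, SYNGR3 31.0 ± 2.28 and 33.8 ± 0.366 FPKM, and SYPL1, a broadly expressed synaptophysin-like protein, 24.9 ± 0.879 and 29.2 ± 0.103 FPKM. Voom called SYPL1 higher (adjusted p = 0.0468, limma adjusted p = 0.117), the only call among the 3 tested genes of that family. Over all tested genes voom called 3.35% higher. The 3 tested genes of the synaptophysin family had a median change of 0.12, beside -0.02 over all tested genes.

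UCHL1 stood far above the other ubiquitin hydrolases of its family. UCHL3 had 10.1 ± 0.443 FPKM with PBS and 10.7 ± 0.770 with ketotifen, UCHL5, which works at the proteasome, 15.6 ± 0.742 and 16.1 ± 0.678 FPKM, and BAP1, a chromatin deubiquitinase, 26.7 ± 0.610 and 29.2 ± 1.003 FPKM. UCHL1 exceeded UCHL3 41.9 to 48.2 times and UCHL5 26.96 to 31.4 times over the 4 libraries, and on both ratios the groups overlapped. None of the 4 was called by limma or voom, beside 0.123% and 6.81% of all tested genes. All 4 changes were positive at the main settings, after median ratio scaling, after quantile normalization and in voom. After rescaling each library to the same sum, 3 were positive and 1 negative. The median at the main settings was 0.10. Of the 8 genes of the NCAM and L1 adhesion family and its polysialyltransferases, 2 were tested. NRCAM, the other one beside NCAM1, had 1.38 ± 0.0930 and 1.21 ± 0.0585 FPKM and was not called.

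Of 19 genes of prohormone processing, 9 lay under 1 FPKM, among them PCSK1 and PCSK2, the convertases of dense-core vesicles, PCSK2 at 0 to 1 reads per library. PCSK4 (0.149 FPKM) and PCSK5 (0.687 FPKM) were also under it. The other 10 were above, CPE, which encodes carboxypeptidase E, at 2.61 ± 0.0297 FPKM with PBS and 2.35 ± 0.0685 after ketotifen. The 3 most abundant were FURIN, PAM and MBTPS1. FURIN, the convertase of the Golgi, had 87.2 ± 1.95 FPKM with PBS and 85.4 ± 1.03 with ketotifen. MBTPS1, the site-1 protease, had 29.02 ± 1.20 and 28.3 ± 1.71 FPKM, and PAM, the amidating enzyme, 37.2 ± 1.74 and 36.4 ± 1.24 FPKM. None of the 10 tested genes was called by limma or voom, which called 0.123% and 6.81% of all tested genes. The median change of the 10 was -0.03 (-0.30 to 0.11), beside -0.02 over all tested genes.

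**Figure D5:**
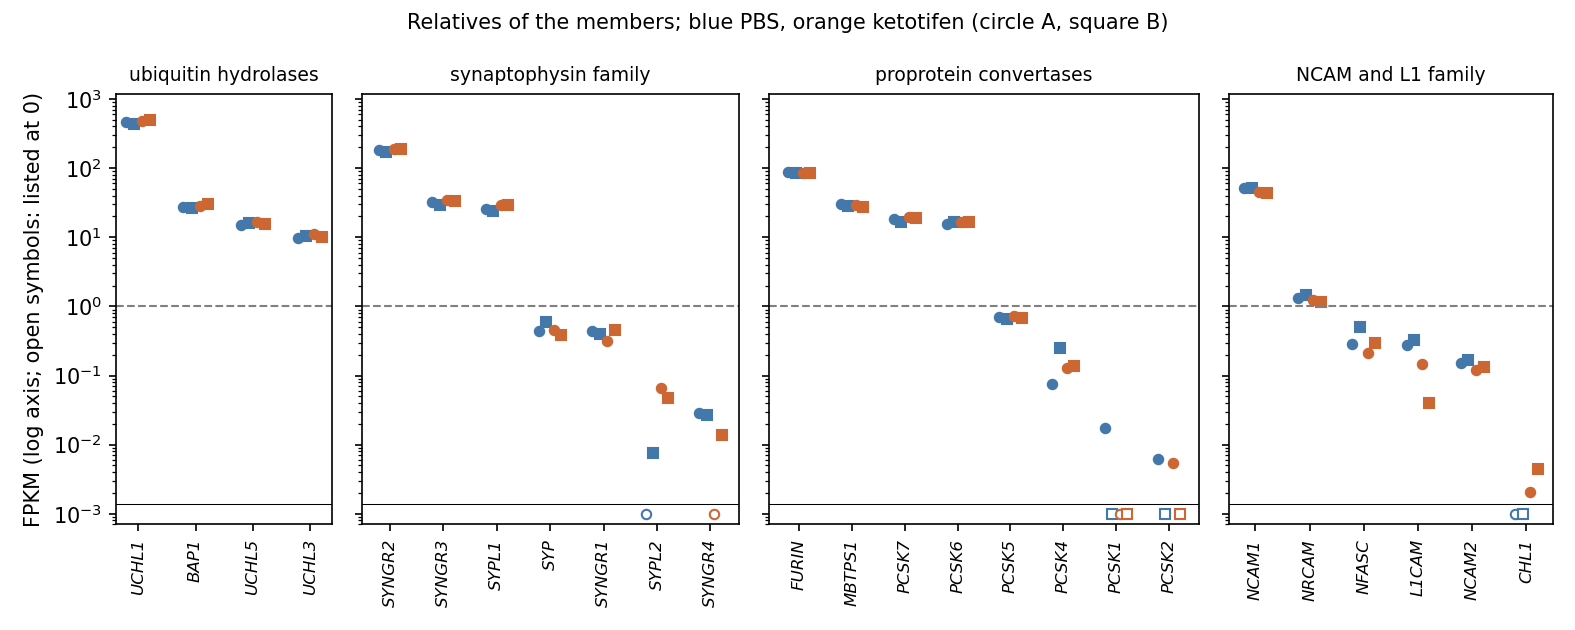
FPKM (log axis) of 4 families with at least one member, blue for PBS and orange for ketotifen, circles for library A and squares for library B, values of 0 as open symbols under the line. UCHL1 and NCAM1 lead their families, whereas SYP lies below SYNGR2, SYNGR3 and SYPL1, and PCSK1 below FURIN, MBTPS1 and others.

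Of 43 peptide precursor genes 31 had a row, and 22 of these lay under 1 FPKM. The most abundant were GAL, the galanin precursor, with 22.3 ± 1.43 and 21.8 ± 0.962 FPKM in the PBS and ketotifen groups, and NMU, the neuromedin U precursor, with 17.5 ± 1.90 and 21.3 ± 1.52 FPKM (adjusted p = 0.154 in limma and 0.0881 in voom). ADM, which encodes the vasodilator adrenomedullin, had 6.43 ± 0.155 and 4.87 ± 0.682 FPKM (limma adjusted p = 0.122). Voom called 1 of 9 tested genes, ADM2, lower (1.29 ± 0.180 and 0.721 ± 0.0956 FPKM, adjusted p = 0.0287), beside 3.46% of all tested genes. The GRP receptor gene GRPR was listed at 0 in all 4 libraries.

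Of 26 measured genes of dense-core vesicle formation and traffic, 17 were tested, or 65.4%, beside 64.6% of all rows. ATP6AP1, an accessory subunit of the vacuolar proton pump, had 52.6 ± 2.43 FPKM with PBS and 53.2 ± 0.361 with ketotifen, RAB3A, a GTPase of secretory vesicles, 33.6 ± 1.31 and 31.7 ± 0.782 FPKM, and ICA1, an islet autoantigen of secretory granules, 29.6 ± 0.467 and 29.3 ± 1.35 FPKM. Limma called none of the 17, and voom called 3 lower and none higher. Over all tested genes voom called 3.46% lower and 3.35% higher. These were SYT7, a calcium sensor of regulated secretion (1.53 ± 0.0672 and 0.861 ± 0.0413 FPKM, voom adjusted p = 0.00102), HID1, needed for vesicle maturation (1.42 ± 0.0497 and 0.821 ± 0.0185 FPKM, voom adjusted p = 0.0367), and RAB3B, a relative of RAB3A (6.34 ± 0.156 and 4.82 ± 0.318 FPKM, voom adjusted p = 0.00288). Limma's adjusted p for these 3 was 0.1003 to 0.102. Across the 17 genes the median change was -0.01, with 11 negative and 6 positive (8 and 9 after median ratio scaling), beside -0.02 over all tested genes. In the marker list voom called 2 of 7 tested genes lower, again beside 3.46% of all tested genes. These were NCAM1 and ENO2, or neuron-specific enolase (2.93 ± 0.240 and 1.83 ± 0.329 FPKM, voom adjusted p = 0.0441, limma adjusted p = 0.102).

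GENCODE places 3 other genes over NCAM1, 2 over SCG3, and 1 each over UCHL1, SCG5, SYP and PCSK1, antisense ones among them. None of these has a row. The strand setting of the counting is not known, and their reads cannot be told apart from those of the members they overlie. For SCG3, SCG5, SYP and PCSK1 this limit falls on values that rest on 0 to 50 reads per library.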

How the data were processed

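Stranded mRNA libraries of LASCPC-01 cells were sequenced as paired ends, per the labels' protocols. Tools named in the submitters' processing notes are HISAT2, HTSeq and fastp, with the build GRCh38. The annotation, gene lengths and strand setting used are not known here. The authors deposited 1 FPKM value per gene and library (16376 genes, 4 libraries).

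All 10586 genes whose mean reached 1 FPKM were tested with limma 3.58.1 (R 4.3.3, intensity trend, two-sided) on log2(FPKM + 1), and Benjamini-Hochberg adjusted p under 0.05 was called. Fold changes on this scale understate changes of low genes. Whole reads, known up to a factor shared by a gene's 4 values, were recovered from the FPKM steps for 10585 of the tested genes with Python 3.11.15, within the rounding error of the printed values. They summed to 30838027 and 32606548 (PBS A and B) and 34435108 and 31691332 (ketotifen A and B). Of 300 decoy genes, 0 gave whole reads. The common factor of members was judged from GENCODE exon lengths. Voom on these reads was an alternative, beside other pseudocounts, filters, scalings and leaving out each library. Methods were tested on simulated data. Members and lists were chosen with earlier results of these data known. Named genes are the members and, in each list, the 3 most abundant tested genes and any called by limma or voom; REST, PCSK2, PCSK4, PCSK5, CPE, GRPR and the relatives plotted or given as reads were named after their values were seen. Some genes this rule takes are not reported here.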

Additional observations from a re-analysis of the deposited data

How the results depend on the processing

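NCAM1 kept a negative change and UCHL1 a positive one under all alternatives run. NCAM1 passed the threshold in voom (-0.22), and UCHL1 did not. Leaving out each library in turn gave changes of -0.23 to -0.21 for NCAM1 and 0.094 to 0.17 for UCHL1; NCAM1 passed with either PBS library left out, and UCHL1 with PBS library A left out. Where a group is left with 1 library, it is assumed to vary like the other group. The number of genes called by limma was 0 without the filter, 27 when the filter was raised to 5 FPKM, and 3 both after scaling by median ratios and after quantile normalization, beside 13 at the main settings and 721 in voom, and ran from 10 to 1936 with a library left out; the cause was not tested. With no filter 2295 genes had an unadjusted p under 0.05. No paired analysis was possible because the columns carry letters that no label ties to the replicate numbers. The 7 members under 1 FPKM rest on 0 to 50 reads per library, which limits any comparison of them.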

Other observations

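Among the peptide, vesicle and synaptophysin family lists, 33 genes outside the set lay under 1 FPKM but above 0. The groups did not overlap in 10 of them, 6 with ketotifen higher and 4 with ketotifen lower, beside 30.8% of all such rows of the table. Examples, picked after their values were seen, are given as reads, known up to a factor shared by a gene's values. UCN, the urocortin precursor, had 10 and 3 reads in PBS libraries A and B and 21 and 17 in ketotifen libraries A and B, and TAC3, the neurokinin B precursor, 0 and 1 against 5 and 6. In the other direction, RAB27B, a GTPase of secretory vesicles, had 38 and 21 reads against 17 and 12, and SYT11, a synaptotagmin, 8 and 10 against 3 and 7. None of the 10 was tested.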
